A study of Mus musculus with 9 samples.

Results

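The G protein-coupled receptor signalling genes described here are the 170 genes, of 21959 in the deposited table, that carry the Gene Ontology process term for this pathway and reached 10 read counts in at least 3 of the 9 libraries. Of 2109 genes with the term, 1911 did not reach that level, 1463 of them with 0 counts in every library. A further 28 were left out by name (chemokines and their receptors, prostaglandin genes, the Adgre adhesion receptors and Entpd1). The 170 comprise 95 receptors, 22 G protein subunits and 53 regulators and other signalling genes. Read counts thus chose the members, with no regard to which group they came from: 131 had 10 counts in all 9 libraries, 16 reached that level in OMVSSDC or ZJDC libraries and in no PBSDC library, and 1 (Mc3r) did so in PBSDC libraries alone. Members just inside the threshold, with exactly 3 libraries at 10 counts, were Adora2a, Oprl1, Kiss1r, Mc3r, Adgrd1, Tas2r135 and Gng3, and 9 genes with exactly 2 such libraries, among them Adora3, Grpr, Gpr4 and P2ry4, lay just outside.

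G protein-coupled receptors span the plasma membrane and, once a ligand binds, make a trimeric G protein exchange GDP for GTP. The Gi alpha subunits then lower cyclic AMP, Gs raises it, Gq activates phospholipase C beta, and G12 and G13 act on the cytoskeleton, while the released beta-gamma dimer activates PI3-kinase gamma and other effectors. RGS proteins speed GTP hydrolysis on the alpha subunit, and receptor kinases with arrestins switch off the receptor itself. Myeloid cells, dendritic cells included, use such receptors to sense complement fragments, formylated bacterial peptides, lipids, nucleotides and acidity, and so to move and to set their response.

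Total RNA was sequenced from DC2.4, an established mouse dendritic cell line, in 3 libraries per group. The groups are titled OMVSSDC, ZJDC and PBSDC, and the study describes treatment of these cells with engineered vesicles. No label spells out OMVSS or ZJ or gives a dose, a duration or whether libraries came from separate cultures. Thus p-values measure the spread between these libraries, which may be technical. PBS usually abbreviates phosphate-buffered saline, and PBSDC is taken as the control of both other groups, a reading that the labels do not state. All groups share the same cell line, with no other factor given.

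Library totals ranged from 12784931 to 18388959 counts. OMVSSDC replicates 1 and 2 stood apart: their median absolute log2 difference from each other was 0.0637, against 0.289 and 0.275 from OMVSSDC replicate 3, which lay 0.104 to 0.126 from the ZJDC libraries. Some markers of other tissues differed between groups or in single libraries. The summed level of 9 heart and brain markers was 4.36 to 18.2 CPM (counts scaled to library size, with TMM factors) in OMVSSDC, 16.7 to 22.1 CPM in ZJDC and 32.3 to 35 CPM in PBSDC, and Myh6, Myl2 and Actc1 had 0 to 2 counts in OMVSSDC replicates 1 and 2 and 16 to 110 in the other 7 libraries. Of the 9, Tnnt2 averaged 3.78 CPM in OMVSSDC, 6.38 CPM in ZJDC and 19.4 CPM in PBSDC. The mean of 1 marker in OMVSSDC and 2 in ZJDC lay above PBSDC. The 7 fibroblast and endothelial markers summed to 10.4 to 24.0 CPM in OMVSSDC, 14.4 to 17.8 CPM in ZJDC and 26.3 to 29.0 CPM in PBSDC. Of these 7, Pecam1 averaged 3.91 CPM in OMVSSDC, 4.19 CPM in ZJDC and 15.3 CPM in PBSDC. Pdgfra went the other way, at 6.17 CPM in OMVSSDC, 5.02 CPM in ZJDC and 2.65 CPM in PBSDC. The mean of 2 of the 7 in OMVSSDC and 3 in ZJDC lay above PBSDC. Granulocyte and erythroid markers summed to 0.391 to 8.95 CPM in OMVSSDC, and to at most 1.02 CPM in ZJDC and 1.31 CPM in PBSDC. The 8.95 CPM came from OMVSSDC replicate 1 alone, which had 45 counts of Hbb-bs and 55 of Hba-a1. Every other library had 0 to 2 counts of each. The part of these marker differences in the results below was not tested. Epithelial markers summed to at most 0.203 CPM in OMVSSDC, 0.282 CPM in ZJDC and 0.511 CPM in PBSDC, those of T and B cells to at most 1.44 CPM in OMVSSDC, 0.62 CPM in ZJDC and 0.686 CPM in PBSDC, and Krt19, Cd3e and Cd8a were at 0. Myeloid identity genes were abundant, summing to 4073 to 4615 CPM in OMVSSDC, 4318 to 4415 CPM in ZJDC and 4830 to 4984 CPM in PBSDC. Of these 10 genes, 6 had a higher and 4 a lower mean in OMVSSDC and in ZJDC than in PBSDC. Lyz2 averaged 302 CPM in OMVSSDC, 273 CPM in ZJDC and 846 CPM in PBSDC, and Csf1r 564 CPM in OMVSSDC, 554 CPM in ZJDC and 1131 CPM in PBSDC. Itgam averaged 119 CPM in OMVSSDC, 164 CPM in ZJDC and 336 CPM in PBSDC, and Spi1 274 CPM in OMVSSDC, 299 CPM in ZJDC and 422 CPM in PBSDC. The abundant Cd68 averaged 1359 CPM in OMVSSDC, 1520 CPM in ZJDC and 860.0 CPM in PBSDC, and the scarce dendritic integrin gene Itgax 4.07 CPM in OMVSSDC, 4.31 CPM in ZJDC and 2.05 CPM in PBSDC.

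In OMVSSDC and in ZJDC most members differed from PBSDC. Where called, receptors of chemoattractants and metabolites were mostly lower and orphan, class C and Wnt-binding receptors mostly higher. Of the 169 members tested, 77 were higher and 44 lower in OMVSSDC than in PBSDC (edgeR quasi-likelihood F-test, Benjamini-Hochberg adjusted p under 0.05 over all 11568 tested genes). This was 71.6% of the members, beside 63.6% of all tested genes (33.4% higher, 30.2% lower). In ZJDC 60 members were higher and 41 lower than in PBSDC, 59.8% of the members beside 54.7% of all tested genes (27.6% higher, 27.1% lower). The shares of members called were thus not far from the background. The median log2 fold change was 0.34 over the members and 0.05 over all genes in OMVSSDC, and 0.15 and 0.01 in ZJDC. Both comparisons share the PBSDC libraries. A total of 41 members overlap another gene of the deposited table, among them P2ry12, Cysltr1, Gpr55, Gpr3, Gpr146, Gna12, Gnb2, Rgs20, Ric8a, Plcb3 and Arhgef11; whether counting used strand is not known, so reads could be shared there. Adora2a, an adenosine receptor gene, was not tested for its low counts: it had 12, 10 and 6 counts in OMVSSDC, 6, 11 and 8 in ZJDC and 5, 6 and 4 in PBSDC.

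Over all tested members, more were called higher than lower among the receptors and, apart from them, among the G proteins and regulators. The count threshold favours this, as given below. Among 94 tested receptors 43 were higher and 22 lower in OMVSSDC than in PBSDC (69.1%), and 32 were higher and 19 lower in ZJDC (54.3%). Among 75 G proteins and regulators the counts were 34 higher and 22 lower in OMVSSDC (74.7%), and 28 higher and 22 lower in ZJDC (66.7%). Beside these stand 63.6% of all tested genes in OMVSSDC and 54.7% in ZJDC. The counts by role below are to be read against the same shares of all genes. In OMVSSDC 93 of the 121 called members passed whichever single library was left out, and in ZJDC 79 of 101 did. With OMVSSDC replicate 3 as the only library of its group, 59 members were higher and 45 lower than in PBSDC (61.2%, beside 61.9% of all genes), 94 of the 121 keeping their call. Here and wherever replicate 3 stands alone below, the spread comes from the ZJDC and PBSDC libraries only, and the lone library is assumed to vary as they do. With replicates 1 and 2 alone the counts were 84 and 51 (79.4%, beside 74.9% of all genes), and 118 kept their call. Since all groups share 1 estimate of the spread, leaving out OMVSSDC replicate 3 also moved the calls in ZJDC, to 72 higher and 53 lower (73.5%, beside 70.1% of all genes). The 16 members below 10 counts in every PBSDC library entered only through libraries of the other groups. That favours higher levels there, so these counts only describe the members. The 16 are Adora2a, F2rl2, Oprl1, Gipr, Adgra2, Rorb, Tgm2, Fzd4, Rxfp2, Atrnl1, Tas2r135, Olfr933, Gng8, Ghrl, Vmn2r89 and Vmn2r30. Of the 68 receptors with 10 counts in all 9 libraries, 33 were higher and 19 lower in OMVSSDC, and 25 and 15 in ZJDC. Of the 63 such G proteins and regulators, 26 were higher and 22 lower in OMVSSDC, and 21 and 22 in ZJDC. No surplus of higher ones thus remained among these in ZJDC.

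**Figure D1:**
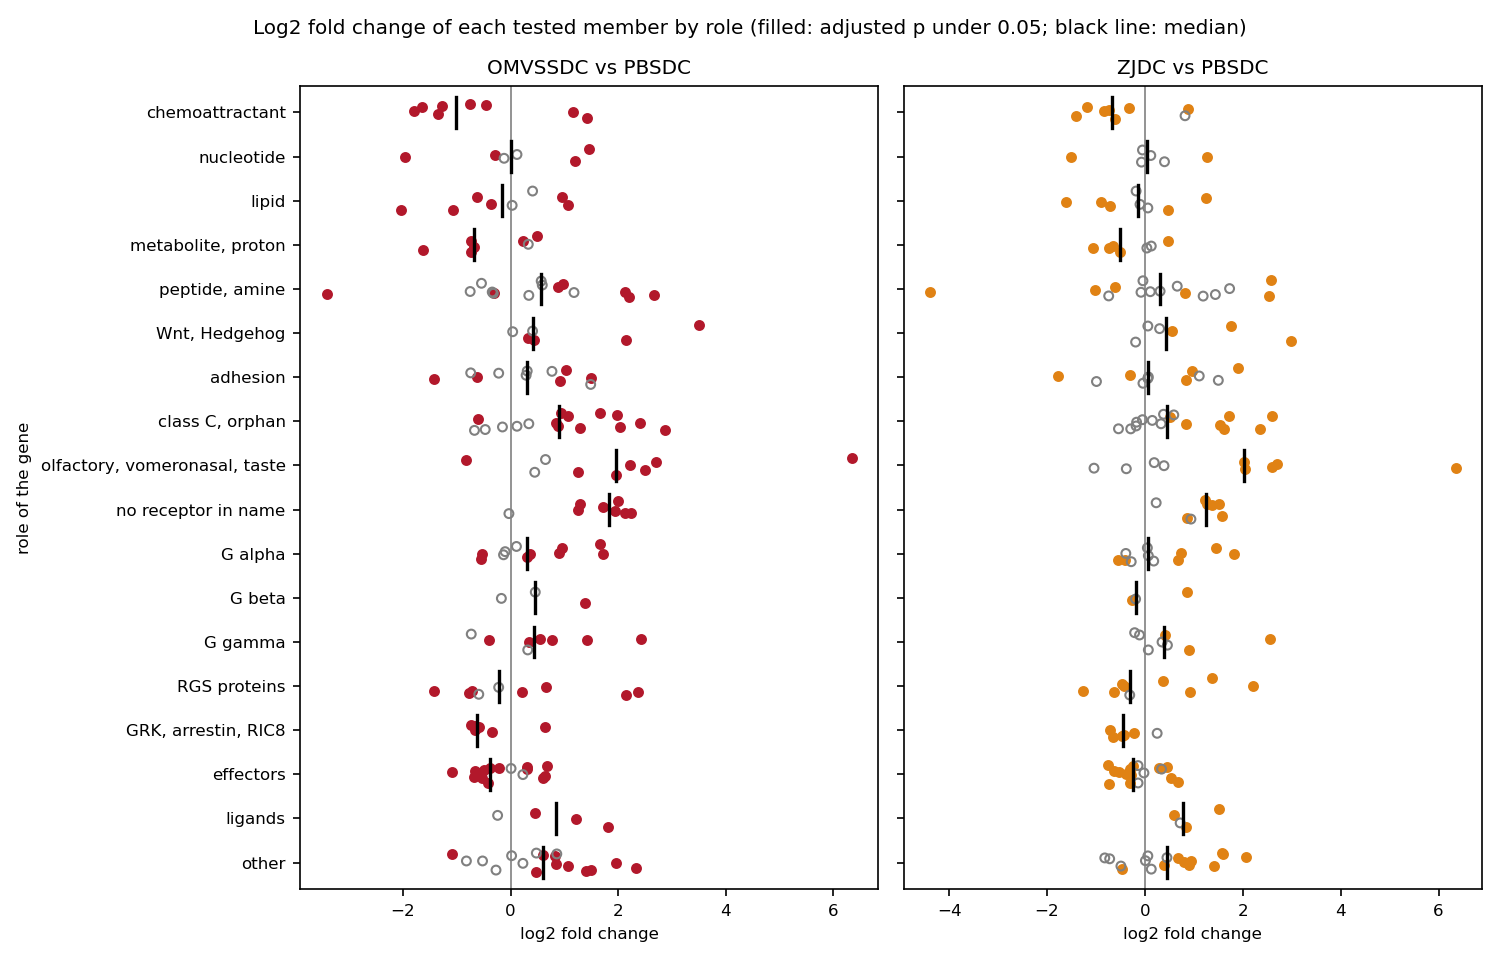
Log2 fold change of each tested member against PBSDC by role, in OMVSSDC (left) and ZJDC (right), with filled points for adjusted p under 0.05, open points for the rest and black lines at the group medians. Chemoattractant receptors and the receptor kinases, arrestins and RIC8 chaperones lay mostly below 0, and orphan and class C receptors mostly above it; the point furthest to the right is Tas2r135, which had 0 counts in every PBSDC library, so that its fitted change is no measured size.

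Receptors for complement fragments, formyl peptides and lipid chemoattractants were lower in both groups, apart from Ptafr and Ltb4r1. All 8 passed in OMVSSDC, 6 lower and 2 higher, with a median log2 fold change of -1.02; in ZJDC 6 were lower and 1 higher, with a median of -0.67. Per transcript length these are among the main receptors of the line: by the authors' FPKM, C3ar1 ranked first among the 95 receptors in every group (157 in OMVSSDC, 167 in ZJDC and 243 in PBSDC) and C5ar1 second (90.2 in OMVSSDC, 123 in ZJDC and 210 in PBSDC). The summed level of the 8 genes was 1047 ± 117 CPM in OMVSSDC, 1224 ± 17.4 CPM in ZJDC and 1946 ± 54.9 CPM in PBSDC (SD, n = 3 each). Here and throughout, fewer cells of a kind and less RNA per cell cannot be told apart.

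The stretches from 250 bases before to 50 bases after the RefSeq gene start are shown for 4 of the 6 that fell in both groups. They are from GRCm38.p6, 5′ to 3′ on the gene's own strand, and capitals mark a match to a searched motif. The other 2 are not shown: the first listed window of C5ar2 holds no match, and Cysltr1 has no listed window. Fpr1 and Fpr2 lie beside each other on chromosome 17, on opposite strands, and Fpr2 overlaps Fpr3 in the deposited table.
C3ar1 (chr6:122856108-122856407, minus strand): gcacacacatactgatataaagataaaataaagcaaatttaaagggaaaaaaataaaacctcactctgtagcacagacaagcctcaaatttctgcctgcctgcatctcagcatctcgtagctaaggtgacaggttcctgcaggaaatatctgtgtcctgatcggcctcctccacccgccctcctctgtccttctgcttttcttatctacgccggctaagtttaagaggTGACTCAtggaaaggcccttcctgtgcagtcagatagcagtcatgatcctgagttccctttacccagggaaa
C5ar1 (chr7:16259289-16259588, minus strand): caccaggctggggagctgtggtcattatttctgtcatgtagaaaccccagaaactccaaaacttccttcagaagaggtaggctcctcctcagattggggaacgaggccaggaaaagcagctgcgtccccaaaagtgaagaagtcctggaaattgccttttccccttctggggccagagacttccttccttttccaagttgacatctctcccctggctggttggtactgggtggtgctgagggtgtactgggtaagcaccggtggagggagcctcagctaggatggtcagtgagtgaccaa
Fpr1 (chr17:17883890-17884189, minus strand): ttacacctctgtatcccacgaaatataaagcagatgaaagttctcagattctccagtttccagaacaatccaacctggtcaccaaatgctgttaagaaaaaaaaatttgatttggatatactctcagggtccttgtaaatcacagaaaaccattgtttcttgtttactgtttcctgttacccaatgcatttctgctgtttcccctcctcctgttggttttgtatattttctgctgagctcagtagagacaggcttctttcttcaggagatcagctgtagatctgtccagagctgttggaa
Fpr2 (chr17:17887574-17887873, plus strand): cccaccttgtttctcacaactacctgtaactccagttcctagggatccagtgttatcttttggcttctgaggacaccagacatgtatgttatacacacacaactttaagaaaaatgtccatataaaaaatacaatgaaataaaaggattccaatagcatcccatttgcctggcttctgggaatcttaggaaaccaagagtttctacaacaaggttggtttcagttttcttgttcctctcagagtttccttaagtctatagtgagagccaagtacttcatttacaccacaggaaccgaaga

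5 motifs were searched on both strands: the core of the interferon-stimulated response element, TGACGTCA (cyclic AMP response element), TGANTCA (AP-1 site, its own reverse complement when N is ignored), GAGGAAGT (an ETS core) and the kB consensus. The C3ar1 window holds 1 match, an AP-1 site starting 22 bases before the gene start, and the windows of C5ar1, Fpr1 and Fpr2 hold none. Of 32851 RefSeq windows of this length, 7.81% hold the AP-1 letters, 3.44% the interferon element, 1.79% the cyclic AMP element, 3.2% the ETS core and 8.46% the kB consensus. Among the 166 windows of the 124 members that the table lists, the shares were 10.8%, 3.61%, 0.602%, 4.82% and 7.83% in the same order. These matches describe the letters only.

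C3ar1, the receptor for the complement fragment C3a, stood at 593, 592 and 757 CPM in OMVSSDC, 735, 715 and 701 CPM in ZJDC and 1053, 1119 and 1109 CPM in PBSDC. Both groups lay below PBSDC with no overlap. C3ar1 had log2 fold changes of -0.76 (adjusted p = 5.44e-05, SE 0.0925) in OMVSSDC and -0.61 (adjusted p = 0.000319, SE 0.0923) in ZJDC. C5ar1, the receptor for C5a, stood at 203, 212 and 252 CPM in OMVSSDC, 316, 325 and 309 CPM in ZJDC and 549, 559 and 587 CPM in PBSDC. It fell further, with no overlap between any of the 3 groups, by log2 fold changes of -1.35 (adjusted p = 5.48e-07, SE 0.0836) in OMVSSDC and -0.83 (adjusted p = 1.84e-05, SE 0.0826) in ZJDC. C5ar2, a second C5a receptor that couples to arrestin more than to G proteins, was scarce, at 0.964 ± 0.253 CPM in OMVSSDC, 1.4 ± 0.094 CPM in ZJDC and 2.33 ± 0.311 CPM in PBSDC (SD, n = 3 each). It fell in OMVSSDC, with a log2 fold change of -1.27 (adjusted p = 0.00128, SE 0.248). In ZJDC the change was -0.73 (adjusted p = 0.0216, SE 0.233), and its adjusted p was 0.0596 to 0.067 without ZJDC replicate 1 or 2 or PBSDC replicate 1 or 2.

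Fpr1, the high-affinity receptor for formylated bacterial peptides, stood at 43.2, 41.8 and 42.5 CPM in OMVSSDC, 54.7, 62.2 and 59.3 CPM in ZJDC and 124, 135 and 142 CPM in PBSDC. The 3 OMVSSDC libraries agreed closely and lay below ZJDC, which lay below PBSDC; the log2 fold changes were -1.65 (adjusted p = 8.89e-08, SE 0.0745) in OMVSSDC and -1.19 (adjusted p = 8.1e-07, SE 0.073) in ZJDC. Fpr2, which binds a wider set of peptides and lipids, moved less, at 48.3, 50.4 and 40.7 CPM in OMVSSDC, 50.9, 49.2 and 51.7 CPM in ZJDC and 65.8, 66.1 and 58.7 CPM in PBSDC. Its groups did not overlap with PBSDC either. Fpr2 had log2 fold changes of -0.45 (adjusted p = 0.00147, SE 0.0899) in OMVSSDC and -0.33 (adjusted p = 0.0104, SE 0.0895) in ZJDC.

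Cysltr1, a cysteinyl leukotriene receptor, stood at 12.3, 15 and 21 CPM in OMVSSDC, 22.7, 20 and 21.1 CPM in ZJDC and 57.9, 50.3 and 59.6 CPM in PBSDC. Every OMVSSDC and ZJDC library lay far below every PBSDC library. Cysltr1 had log2 fold changes of -1.79 (adjusted p = 7.47e-06, SE 0.165) in OMVSSDC and -1.4 (adjusted p = 5.2e-05, SE 0.161) in ZJDC. Ptafr, the receptor for platelet-activating factor, went the other way, at 74, 67.6 and 66.9 CPM in OMVSSDC, 55.5, 56.8 and 58.9 CPM in ZJDC and 31.6, 31.9 and 29.9 CPM in PBSDC. Every OMVSSDC and ZJDC library exceeded every PBSDC library. Ptafr had log2 fold changes of 1.16 (adjusted p = 4.54e-07, SE 0.0703) in OMVSSDC and 0.88 (adjusted p = 4.36e-06, SE 0.0703) in ZJDC. Ltb4r1, the high-affinity leukotriene B4 receptor, stood at 2.52, 2.35 and 1.22 CPM in OMVSSDC, 0.902, 0.939 and 2.09 CPM in ZJDC and 0.531, 0.549 and 1.24 CPM in PBSDC. Those groups overlap, and the log2 fold change of 1.42 (adjusted p = 0.0231, SE 0.471) in OMVSSDC did not hold without OMVSSDC replicate 1 or 2 or PBSDC replicate 1 or 2 (adjusted p 0.0681 to 0.0901) and was 0.68 (adjusted p = 0.349) with OMVSSDC replicate 3 alone.

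**Figure D2:**
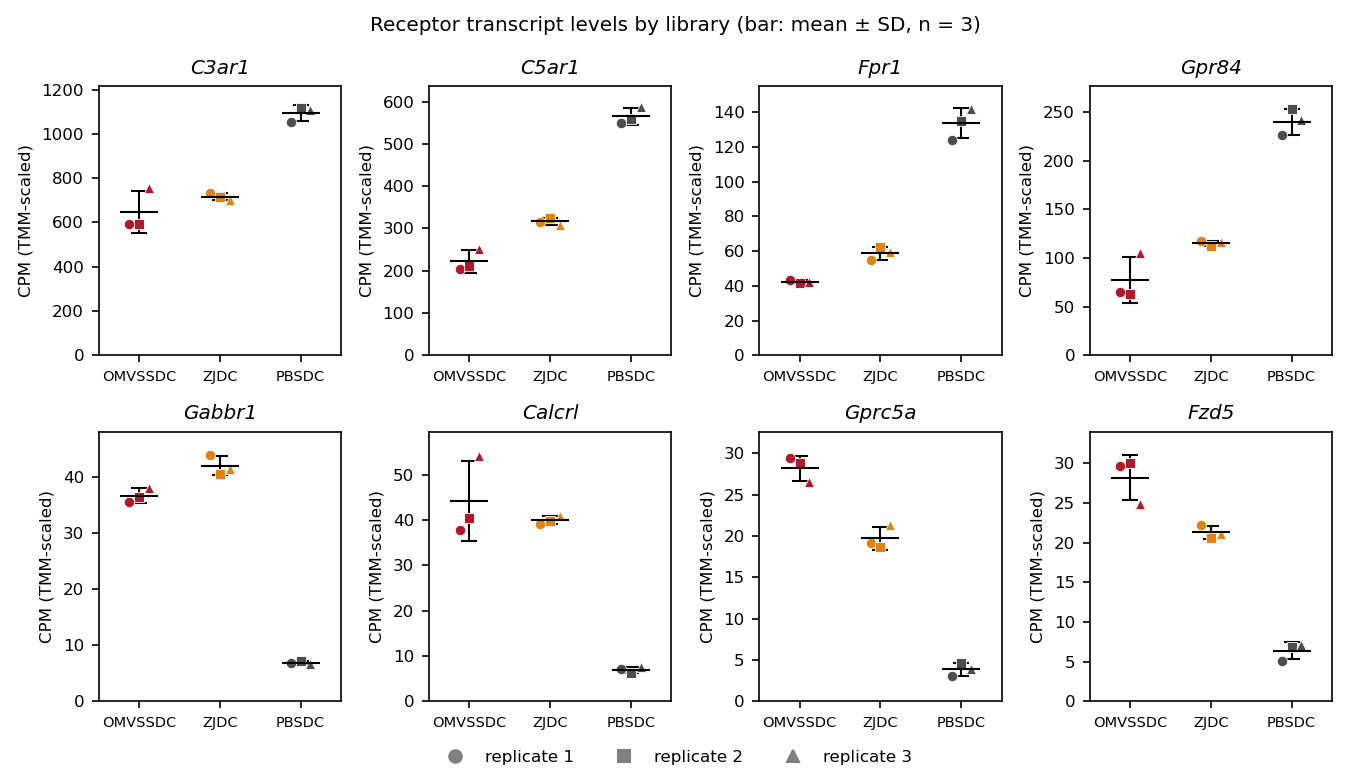
Level of 8 receptor transcripts in each library (CPM, TMM-scaled, linear axes from 0), with circles, squares and triangles for replicates 1, 2 and 3 and bars for mean ± SD (n = 3). In the upper row every OMVSSDC and ZJDC library lies below every PBSDC library, and in the lower row above it; OMVSSDC replicate 3 lies nearest to ZJDC for C3ar1, C5ar1, Gpr84 and Fzd5.

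Metabolite and proton sensors were mostly lower. Of 7 tested, 4 were lower and 2 higher in OMVSSDC than in PBSDC (4 and 0 by edgeR with OMVSSDC replicate 3 alone), and 4 lower and 1 higher in ZJDC. Gpr84, a Gi-coupled receptor for medium-chain fatty acids, stood at 64.8, 62.6 and 105 CPM in OMVSSDC, 117, 112 and 116 CPM in ZJDC and 226, 253 and 242 CPM in PBSDC. Gpr84 fell in both groups, with log2 fold changes of -1.63 (adjusted p = 1.72e-05, SE 0.17) in OMVSSDC and -1.06 (adjusted p = 0.000399, SE 0.166) in ZJDC, and OMVSSDC replicates 1 and 2 were lower than all other libraries. Gpr65, an acid-sensing receptor of immune cells, fell, with log2 fold changes of -0.73 (adjusted p = 0.00015, SE 0.103) in OMVSSDC and -0.51 (adjusted p = 0.00188, SE 0.102) in ZJDC. Gpr35, an orphan for which tryptophan metabolites have been proposed as ligands, and Hcar2, the receptor for niacin and beta-hydroxybutyrate, fell by similar amounts, with log2 fold changes of -0.74 in OMVSSDC and -0.73 in ZJDC, and of -0.67 in OMVSSDC and -0.65 in ZJDC.

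Gpr132, related to the proton sensors, and Gpr31b, a receptor whose human counterpart binds an arachidonic acid product, were called higher by small amounts that depend on single libraries. The log2 fold change of Gpr132 was 0.24 (adjusted p = 0.029, SE 0.0841) in OMVSSDC, with an adjusted p of 0.0554 to 0.103 without any 1 of the OMVSSDC replicates 1 and 2 and the 3 PBSDC replicates. For Gpr31b it was 0.50 (adjusted p = 0.0203, SE 0.161) in OMVSSDC and 0.48 (adjusted p = 0.0278, SE 0.16) in ZJDC, with an adjusted p of 0.0503 to 0.0789 in OMVSSDC without OMVSSDC replicate 1 or 2 or PBSDC replicate 1 or 2, and of 0.0568 to 0.111 in ZJDC without ZJDC replicate 1 or 3 or any PBSDC replicate.

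Lipid receptors moved in both directions. Of 8, 4 were lower and 2 higher in OMVSSDC than in PBSDC (3 and 1 with OMVSSDC replicate 3 alone), and 3 lower and 2 higher in ZJDC. Lpar5, a lysophosphatidic acid receptor, stood at 2.74, 3.63 and 3.52 CPM in OMVSSDC, 5.19, 4.07 and 4.03 CPM in ZJDC and 12.4, 14.8 and 13.6 CPM in PBSDC. It fell in both groups, with no overlap with PBSDC and log2 fold changes of -2.03 (adjusted p = 2.46e-06, SE 0.16) in OMVSSDC and -1.61 (adjusted p = 1.4e-05, SE 0.153) in ZJDC. Lpar6, a second such receptor, fell, with log2 fold changes of -1.07 (adjusted p = 7.04e-05, SE 0.136) in OMVSSDC and -0.90 (adjusted p = 0.00028, SE 0.134) in ZJDC; its gene overlaps Rb1, so reads could be shared with that gene. Lpar2, another, did not pass. Lpar2 had log2 fold changes of 0.03 (adjusted p = 0.883, SE 0.189) in OMVSSDC and 0.06 (adjusted p = 0.815, SE 0.187) in ZJDC. Gpr183, the oxysterol receptor that guides dendritic cells and B cells within lymphoid tissue, fell, with log2 fold changes of -0.63 (adjusted p = 0.00258, SE 0.137) in OMVSSDC and -0.72 (adjusted p = 0.00138, SE 0.137) in ZJDC, and it overlaps Ubac2.

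The sphingosine 1-phosphate receptors moved apart. S1pr1, a Gi-coupled receptor for egress from tissues into blood and lymph, stood at 84.3, 80.9 and 103 CPM in OMVSSDC, 101, 102 and 99 CPM in ZJDC and 120, 119 and 103 CPM in PBSDC. It was lower in OMVSSDC, where the log2 fold change was -0.36 (adjusted p = 0.00892, SE 0.097); with OMVSSDC replicate 3 alone, its spread taken from the other groups, it was -0.16 (adjusted p = 0.0861). In ZJDC it was -0.18 (adjusted p = 0.137, SE 0.0967), and it was called there, at the same -0.18, without OMVSSDC replicate 3 (adjusted p = 0.00377) and with only ZJDC and PBSDC fitted (adjusted p = 0.00826). S1pr2, which couples to G12 and G13 and restrains migration, stood at 60.6, 56.2 and 35.5 CPM in OMVSSDC, 33.6, 35.6 and 39.9 CPM in ZJDC and 24.5, 25.1 and 28.7 CPM in PBSDC. Its level rose in OMVSSDC by a log2 fold change of 0.96 (adjusted p = 0.000851, SE 0.176), replicates 1 and 2 being higher than replicate 3. In ZJDC the change was 0.48 (adjusted p = 0.0411, SE 0.177), and the adjusted p lay between 0.0559 and 0.132 without any 1 of the ZJDC or PBSDC replicates. Cnr2, the peripheral cannabinoid receptor, did not pass, with log2 fold changes of 0.41 in OMVSSDC and -0.10 in ZJDC, though without OMVSSDC replicate 3 it was called higher in OMVSSDC, at 0.62 (adjusted p = 0.0294). Gpr55, a lysophosphatidylinositol receptor, was called higher at 1.73 ± 0.251 CPM in OMVSSDC, 1.9 ± 0.821 CPM in ZJDC and 0.827 ± 0.354 CPM in PBSDC (SD, n = 3 each), but its adjusted p was 0.0637 to 0.13 in OMVSSDC without OMVSSDC replicate 1 or 2 or PBSDC replicate 1 or 3, and 0.0678 to 0.0974 in ZJDC without ZJDC replicate 3 or PBSDC replicate 1 or 3.

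Among nucleotide receptors, P2ry12 fell and P2ry1 rose. P2ry12, the Gi-coupled ADP receptor of platelets and microglia, stood at 0.216, 0.894 and 0.812 CPM in OMVSSDC, 0.62, 0.783 and 1.29 CPM in ZJDC and 2.42, 2.81 and 2.63 CPM in PBSDC. P2ry12 had log2 fold changes of -1.97 (adjusted p = 0.00136, SE 0.389) in OMVSSDC and -1.52 (adjusted p = 0.00555, SE 0.366) in ZJDC, at a level of 3 to 24 counts in OMVSSDC and ZJDC libraries and 36 to 41 in PBSDC. P2ry1, the Gq-coupled ADP receptor, stood at 7.79, 8.83 and 8.32 CPM in OMVSSDC, 7.67, 7.12 and 7.04 CPM in ZJDC and 3.6, 3.15 and 2.26 CPM in PBSDC. P2ry1 rose by log2 fold changes of 1.46 (adjusted p = 3.32e-05, SE 0.166) in OMVSSDC and 1.26 (adjusted p = 0.00013, SE 0.167) in ZJDC, again without overlap. Both receptors bind ADP but couple to different G proteins.

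P2ry2, a receptor for ATP and UTP, did not pass in either group. P2ry2 had log2 fold changes of 0.12 (adjusted p = 0.325, SE 0.101) in OMVSSDC and -0.07 (adjusted p = 0.578, SE 0.101) in ZJDC. P2ry6, the UDP receptor, stood at 142, 134 and 188 CPM in OMVSSDC, 173, 186 and 188 CPM in ZJDC and 187, 193 and 186 CPM in PBSDC. The 2 lowest libraries were OMVSSDC replicates 1 and 2; the log2 fold change was -0.29 (adjusted p = 0.0467, SE 0.113) in OMVSSDC, which did not pass without any 1 of 8 libraries (adjusted p 0.0607 to 0.156; all but OMVSSDC replicate 3), and it was -0.01 with OMVSSDC replicate 3 alone. Adora2b, the low-affinity, Gs-coupled adenosine receptor, was higher in OMVSSDC, at 2.02, 2.35 and 2.17 CPM in OMVSSDC, 1.07, 1.72 and 1.07 CPM in ZJDC and 0.767, 1.17 and 0.949 CPM in PBSDC. The change was 1.19 (adjusted p = 0.00309, SE 0.269) in OMVSSDC, and 0.40 (adjusted p = 0.265, SE 0.288) in ZJDC, where the groups overlap.

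Receptors for peptides, amines and proteases moved in both directions, and Calcrl rose 6.36-fold in OMVSSDC and 5.76-fold in ZJDC. Of 15, 5 were higher and 2 lower in OMVSSDC than in PBSDC, and 3 were higher and 3 lower in ZJDC. Among those called, Oprl1 (higher in OMVSSDC) and Gipr (higher in both) had fewer than 10 counts in every PBSDC library. Mc3r (lower in both) met the count threshold through PBSDC alone, so the directions of these genes are only described. The call of Oprl1 did not hold without any 1 of 7 libraries. Those of Galr2 and Adra1a (both higher in OMVSSDC) did not hold without any 1 of 3 and any 1 of 4 libraries. That of Avpr2 (lower in ZJDC), which overlaps Arhgap4 and L1cam, did not hold without any 1 of 7. With OMVSSDC replicate 3 alone, 2 were higher and 3 lower in OMVSSDC; without that replicate, 7 were higher and 4 lower in ZJDC. Calcrl, which with a RAMP partner forms the receptors for adrenomedullin and calcitonin gene-related peptide, stood at 37.7, 40.5 and 54.2 CPM in OMVSSDC, 39.1, 39.8 and 40.8 CPM in ZJDC and 7.02, 6.24 and 7.52 CPM in PBSDC. All OMVSSDC and ZJDC libraries lay far above PBSDC. Calcrl had log2 fold changes of 2.67 (adjusted p = 2.54e-07, SE 0.147) in OMVSSDC and 2.53 (adjusted p = 5.96e-07, SE 0.147) in ZJDC. Its partners were nearly undetected: over the 9 libraries Ramp1 had at most 3 counts, Ramp2 at most 1 and Ramp3 at most 10, and the ligand gene Adm at most 4 (these 4 genes were chosen after their values were seen).

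Mc5r, a melanocortin receptor, was lower in OMVSSDC by a small amount. Mc5r had log2 fold changes of -0.31 (adjusted p = 0.00477, SE 0.0754) in OMVSSDC and -0.08 (adjusted p = 0.406, SE 0.0751) in ZJDC. Mc3r, another melanocortin receptor, had 0 to 4 counts in OMVSSDC and ZJDC libraries and 18 to 28 in PBSDC. Since it met the count threshold through PBSDC alone, its lower level elsewhere is only described. F2r, the thrombin receptor, showed a log2 fold change of 0.81 (adjusted p = 0.0233, SE 0.26) in ZJDC, with an adjusted p of 0.0525 to 0.0789 without ZJDC replicate 1 or 2 or any 1 PBSDC replicate. Hrh1, a histamine receptor, did not pass, with log2 fold changes of -0.34 in OMVSSDC and -0.04 in ZJDC.

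Class C and orphan receptors were mostly higher where they passed. Of 16, 10 were higher and 1 lower in OMVSSDC than in PBSDC (8 and 2 with OMVSSDC replicate 3 alone, 11 and 3 without it), with a median log2 fold change of 0.91, and 7 were higher and 0 lower in ZJDC (8 and 2 without OMVSSDC replicate 3), with a median of 0.44. Gabbr1, a subunit of the metabotropic GABA receptor, stood at 35.5, 36.5 and 38.1 CPM in OMVSSDC, 43.9, 40.5 and 41.5 CPM in ZJDC and 6.9, 7.2 and 6.57 CPM in PBSDC. All 6 OMVSSDC and ZJDC libraries lay far above the highest PBSDC library. Gabbr1 had log2 fold changes of 2.41 (adjusted p = 2.29e-08, SE 0.0855) in OMVSSDC and 2.6 (adjusted p = 1.76e-08, SE 0.0854) in ZJDC. Gabbr2, the subunit through which that receptor signals, had at most 10 counts in any library (it was chosen after its values were seen).

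Gprc5a, a class C orphan that retinoic acid induces, stood at 29.4, 28.8 and 26.5 CPM in OMVSSDC, 19.2, 18.7 and 21.3 CPM in ZJDC and 3.07, 4.6 and 3.94 CPM in PBSDC. It rose in both groups. Gprc5a had log2 fold changes of 2.87 (adjusted p = 1.28e-07, SE 0.14) in OMVSSDC and 2.36 (adjusted p = 7.1e-07, SE 0.141) in ZJDC. In both groups 3 other orphans rose: Gpr157 with log2 fold changes of 2.03 in OMVSSDC and 1.71 in ZJDC, Gpr162 with 1.98 in OMVSSDC and 1.61 in ZJDC, and Gpr3, which signals through Gs without a ligand, with 1.67 in OMVSSDC and 1.54 in ZJDC. Tpra1 had changes of 0.89 in OMVSSDC and 0.51 in ZJDC. Gpr19 and Gpr146 were higher in OMVSSDC, with log2 fold changes of 1.06 (adjusted p = 0.00229, SE 0.227) and 0.85 (adjusted p = 0.000927, SE 0.159). In ZJDC they were 0.59 (adjusted p = 0.0538, SE 0.232) and 0.33 (adjusted p = 0.107, SE 0.163). Gpr18, an orphan of lymphoid and myeloid cells, was the only one called lower, with -0.60 (adjusted p = 0.00279, SE 0.134) in OMVSSDC. In ZJDC it was -0.18 (adjusted p = 0.276, SE 0.132), or -0.18 (adjusted p = 0.0392) without OMVSSDC replicate 3, and it overlaps Ubac2.

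The Wnt pathway receptors that passed were higher. Of 6 Wnt and Hedgehog pathway receptors, 4 were higher in OMVSSDC, 3 in ZJDC and 0 lower in either, Fzd4 counted among the higher ones; with OMVSSDC replicate 3 alone 3 were higher and 1 lower in OMVSSDC, and without that replicate 3 were higher and 1 (Smo) lower in ZJDC. Fzd5, a Wnt receptor, stood at 29.6, 30.1 and 24.9 CPM in OMVSSDC, 22.2, 20.6 and 21.1 CPM in ZJDC and 5.13, 6.86 and 7.08 CPM in PBSDC. Fzd5 rose by log2 fold changes of 2.15 (adjusted p = 5.87e-07, SE 0.135) in OMVSSDC and 1.75 (adjusted p = 3.61e-06, SE 0.136) in ZJDC. Fzd4, the receptor for Norrin and some Wnt proteins, had 38, 48 and 45 counts in OMVSSDC, 35, 27 and 35 in ZJDC and 6, 4 and 1 in PBSDC. It met the count threshold through the first 2 groups, so its higher level there is only described. Lgr4, an R-spondin receptor, rose by log2 fold changes of 0.43 (adjusted p = 0.0101, SE 0.12) in OMVSSDC and 0.55 (adjusted p = 0.00306, SE 0.119) in ZJDC. Smo, the Hedgehog signal transducer, did not pass, with log2 fold changes of 0.04 in OMVSSDC and -0.19 in ZJDC. Without OMVSSDC replicate 3, all 6 receptors, Smo among them, were called higher in OMVSSDC, so the result of Smo there depended on that replicate. Fzd7, another Wnt receptor, showed a log2 fold change of 0.32 (adjusted p = 0.0248, SE 0.107) in OMVSSDC, with an adjusted p of 0.0552 to 0.0785 without OMVSSDC replicate 2 or PBSDC replicate 1 or 2.

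Of 11 adhesion receptors, 3 were higher and 2 lower in each group. Adgrl2, a latrophilin, stood at 252, 253 and 277 CPM in OMVSSDC, 258, 266 and 275 CPM in ZJDC and 134, 135 and 143 CPM in PBSDC. Every OMVSSDC and ZJDC library lay above PBSDC. Adgrl2 had log2 fold changes of 0.92 (adjusted p = 1.07e-06, SE 0.0644) in OMVSSDC and 0.96 (adjusted p = 1.4e-06, SE 0.0644) in ZJDC. Adgrg6, a collagen- and laminin-binding receptor known from myelination, rose by log2 fold changes of 1.5 (adjusted p = 0.000155, SE 0.213) in OMVSSDC and 1.9 (adjusted p = 3.65e-05, SE 0.208) in ZJDC. Celsr3, a planar polarity cadherin receptor, rose by 1.03 in OMVSSDC and 0.83 in ZJDC. Adgrl1, a second latrophilin, went down in OMVSSDC, with a log2 fold change of -0.62 (adjusted p = 0.00121, SE 0.121), while in ZJDC the change was -0.31 (adjusted p = 0.0457, SE 0.119) and had an adjusted p of 0.0503 to 0.185 without OMVSSDC replicate 1, PBSDC replicate 2 or 3 or any 1 ZJDC replicate.

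**Figure D3:**
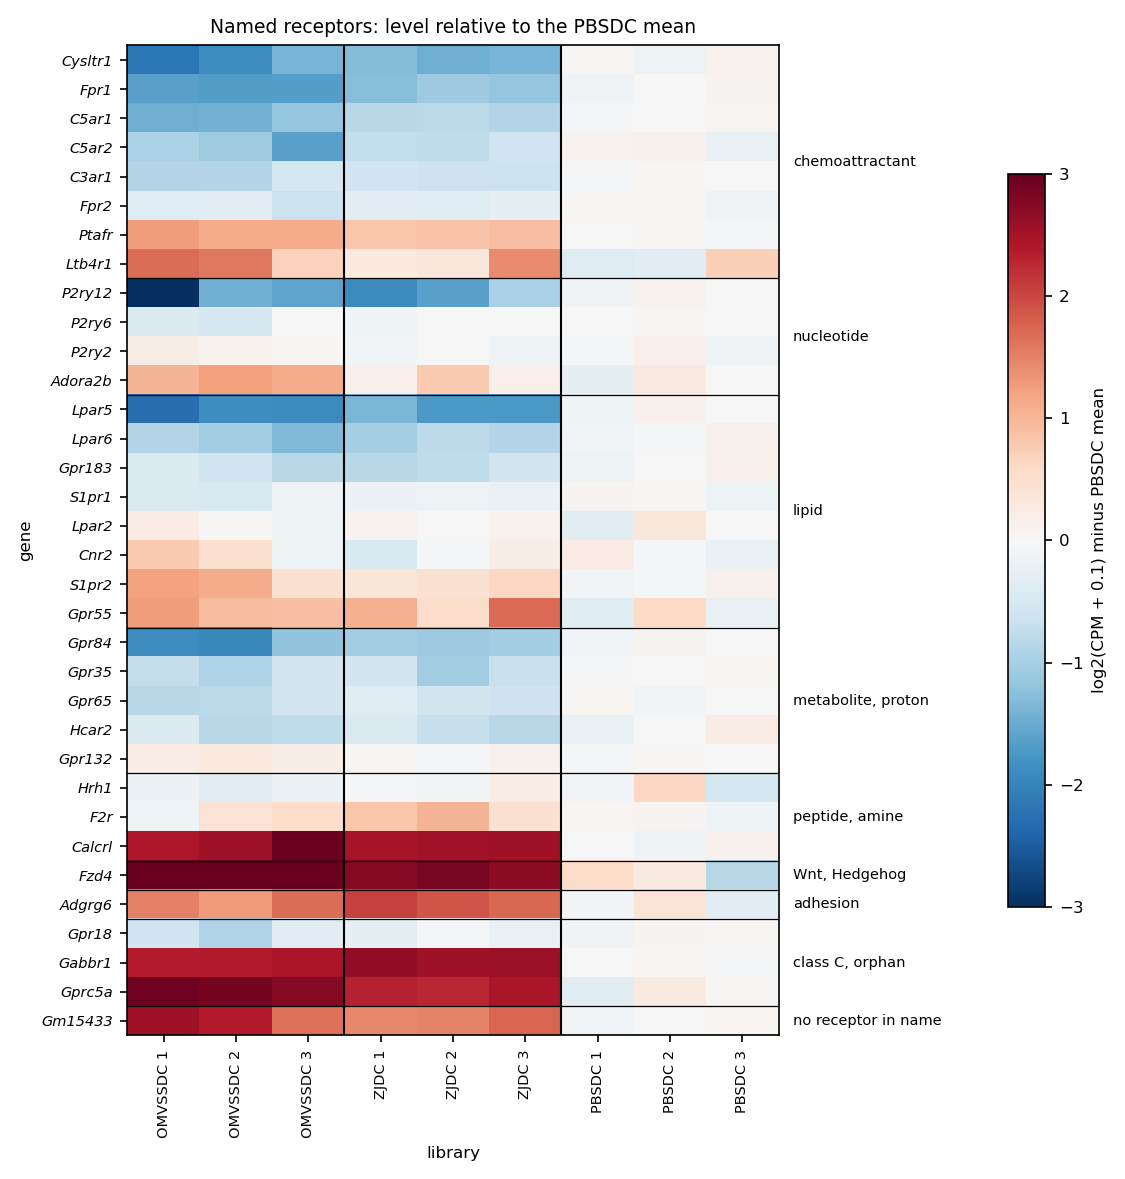
Level of the receptors that the naming rule picked and that are reported here, per library, as log2(CPM + 0.1) minus the mean of the 3 PBSDC libraries, with blue below and red above it and colours saturated at 3 in either direction. Rows are grouped by ligand or family; OMVSSDC replicate 3 resembles ZJDC more than OMVSSDC replicates 1 and 2 for Cysltr1, Gpr84, P2ry6 and S1pr2.

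The last 17 genes annotated as receptors are chemosensory or have no receptor in their name. Of them 8 carry a receptor term but no receptor in their name (Csprs, Gm7582, Gm7592, Gm7609, Gm15433, Gm52955, Tm2d1 and Chml); several belong to a family of near-identical copies, so their counts may be split or shared. Of these 7 were higher in OMVSSDC and 6 in ZJDC, with 0 lower, and without them 36 of 86 tested receptors were higher and 22 lower in OMVSSDC and 26 and 19 in ZJDC. Without OMVSSDC replicates 1 and 2, Gm7609 showed a log2 fold change of 1.19 in OMVSSDC, against 2.0 (adjusted p = 0.00016, SE 0.285) with all libraries, and Gm52955 one of 0.62 (adjusted p = 0.114), against 1.71 (adjusted p = 0.00301, SE 0.385). Gm15433 stood at 88.5, 78.8 and 47.4 CPM in OMVSSDC, 41, 42.8 and 50.8 CPM in ZJDC and 14.3, 15.3 and 15.8 CPM in PBSDC. Its log2 fold change in OMVSSDC was 2.24 (adjusted p = 7.7e-06, SE 0.207), and 1.64 with OMVSSDC replicate 3 alone. Of 9 olfactory, vomeronasal and taste receptors 6 were called higher and 1 lower in OMVSSDC, and 5 higher and 0 lower in ZJDC. Among the higher ones in both groups, Tas2r135, Olfr933, Vmn2r89 and Vmn2r30 had fewer than 10 counts in every PBSDC library. They met the count threshold through OMVSSDC and ZJDC, so their higher level there is only described. Olfr920 stood at 10.5, 9.83 and 14.9 CPM in OMVSSDC, 10.4, 10.5 and 10.3 CPM in ZJDC and 2.71, 2.13 and 2.7 CPM in PBSDC. Olfr920 had log2 fold changes of 2.22 (adjusted p = 4.7e-06, SE 0.19) in OMVSSDC and 2.04 (adjusted p = 1.27e-05, SE 0.191) in ZJDC. Tas2r135 had 9, 13 and 8 counts in OMVSSDC, 12, 5 and 15 in ZJDC and 0 in PBSDC, which makes it at least 9.72-fold higher in OMVSSDC and at least 9.82-fold higher in ZJDC against a floor of 3 counts over the PBSDC group. Olfr56 overlaps Ifi47, and its counts could hold reads of that gene.

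Summed over all 95 receptors, transcript levels were 2814 ± 141 CPM in OMVSSDC, 2969 ± 10.7 CPM in ZJDC and 3443 ± 83.7 CPM in PBSDC, while the 22 G protein subunits summed to 2418 ± 3.86 CPM in OMVSSDC, 2359 ± 36.9 CPM in ZJDC and 2502 ± 15.9 CPM in PBSDC (SD, n = 3 each). The receptor sum was lower in both groups although more receptors were called higher than lower. The gap to PBSDC in the chemoattractant receptor sum, given above, was larger than that in the sum of all receptors. The sum of all receptors holds the 8 genes with no receptor in their name, which went the other way. Those 8 summed to 351 ± 37.8 CPM in OMVSSDC, 279 ± 10.9 CPM in ZJDC and 125 ± 1.08 CPM in PBSDC (SD, n = 3 each).

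Among alpha subunits, Gnai2, of the inhibitory class, fell and Gna13, of the G12 and G13 class, rose in both groups. Of 11, 6 were higher and 2 lower in OMVSSDC than in PBSDC, and 4 higher and 2 lower in ZJDC. Gnai2, the leading G protein transcript by the authors' FPKM in every group (236 in OMVSSDC, 248 in ZJDC and 312 in PBSDC), stood at 831, 822 and 911 CPM in OMVSSDC, 960, 911 and 937 CPM in ZJDC and 1249, 1211 and 1235 CPM in PBSDC. Each OMVSSDC and ZJDC library lay below PBSDC. Gnai2 had log2 fold changes of -0.53 (adjusted p = 2.9e-05, SE 0.0592) in OMVSSDC and -0.40 (adjusted p = 0.000285, SE 0.0591) in ZJDC. Gnai3, the second inhibitory subunit, stood at 196, 202 and 150 CPM in OMVSSDC, 155, 152 and 156 CPM in ZJDC and 145, 152 and 149 CPM in PBSDC. It was higher in OMVSSDC replicates 1 and 2 only: the log2 fold change was 0.30 (adjusted p = 0.0264, SE 0.101), with an adjusted p of 0.0624 to 0.113 without OMVSSDC replicate 1 or 2 or any 1 PBSDC replicate, and 0.00 with OMVSSDC replicate 3 alone. The 2 inhibitory subunits together summed to 1037 ± 20.3 CPM in OMVSSDC, 1090 ± 25.7 CPM in ZJDC and 1380 ± 16 CPM in PBSDC (SD, n = 3 each).

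Gna13, which acts on the cytoskeleton and cell movement, stood at 358, 356 and 303 CPM in OMVSSDC, 270, 272 and 286 CPM in ZJDC and 166, 177 and 178 CPM in PBSDC. No OMVSSDC or ZJDC library overlapped with PBSDC. Gna13 had log2 fold changes of 0.96 (adjusted p = 2.71e-06, SE 0.0765) in OMVSSDC and 0.67 (adjusted p = 4.9e-05, SE 0.0763) in ZJDC. Gna12, its close relative, was higher in OMVSSDC, with a log2 fold change of 0.36 (adjusted p = 0.003, SE 0.0802), and was 0.07 (adjusted p = 0.497, SE 0.0804) in ZJDC. Of the phospholipase-coupled subunits, Gna11 fell, with log2 fold changes of -0.54 (adjusted p = 0.00813, SE 0.144) in OMVSSDC and -0.54 (adjusted p = 0.00912, SE 0.143) in ZJDC, and Gnaq did not pass, with 0.11 in OMVSSDC and 0.18 in ZJDC. It was called higher in OMVSSDC with replicate 3 alone, at 0.36 (adjusted p = 6.41e-05), in ZJDC without that replicate, at 0.18 (adjusted p = 0.00219), or with only ZJDC and PBSDC fitted (adjusted p = 0.00215), and in both by library size alone (adjusted p = 0.0441 in OMVSSDC and 0.0458 in ZJDC). Gna15, the promiscuous subunit of blood cells, did not pass, with -0.10 in OMVSSDC and -0.28 in ZJDC. Gnas, the stimulatory subunit, had only 16 to 41 counts per library and overlaps another gene in the table, so its log2 fold changes of 0.91 (adjusted p = 0.0106, SE 0.258) in OMVSSDC and 0.74 (adjusted p = 0.0342, SE 0.26) in ZJDC are uncertain; in ZJDC its adjusted p was 0.0775 to 0.105 without ZJDC replicate 1 or 2 or PBSDC replicate 1 or 2, and in OMVSSDC it was 0.0664 with replicate 3 alone.

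Of the rare alpha subunits, Gnaz, an inhibitory one of neurons and platelets, and Gnal, a stimulatory one of olfactory neurons, were higher in OMVSSDC, by log2 fold changes of 1.66 (adjusted p = 0.0255, SE 0.563) and 1.72 (adjusted p = 0.00869, SE 0.467). For Gnaz the adjusted p in OMVSSDC was 0.0512 with the replicate block and 0.0563 with only OMVSSDC and PBSDC fitted. The log2 fold change of Gnal was 2.65 in OMVSSDC and 2.38 in ZJDC without PBSDC replicate 3. In ZJDC they were 1.81 (adjusted p = 0.0184, SE 0.552) and 1.45 (adjusted p = 0.0251, SE 0.476), with an adjusted p of 0.0536 for Gnaz without ZJDC replicate 2 and of 0.0584 to 0.102 for Gnal without ZJDC replicate 1 or 3 or PBSDC replicate 1 or 2.

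Of 3 beta subunits 1 was higher in each group and 1 lower in ZJDC, and of 8 gamma subunits 5 were higher and 1 lower in OMVSSDC, and 3 higher in ZJDC. Gng8, counted as higher in both groups, had at most 2 counts in any PBSDC library, so its direction is only described. Gng7, counted as higher in OMVSSDC, had an adjusted p of 0.0524 to 0.123 without OMVSSDC replicate 1 or 2 or any 1 PBSDC replicate. With OMVSSDC replicate 3 alone, the log2 fold change of Gng7 was 0.29. Gnb5, a beta subunit that pairs with a subset of RGS proteins, stood at 19.2, 16.3 and 13.1 CPM in OMVSSDC, 10.4, 11.2 and 12.7 CPM in ZJDC and 6.49, 7 and 5.18 CPM in PBSDC. Gnb5 rose by log2 fold changes of 1.38 (adjusted p = 5.91e-05, SE 0.17) in OMVSSDC and 0.87 (adjusted p = 0.00172, SE 0.173) in ZJDC. Gnb1, a widely expressed beta subunit, was lower in ZJDC, with a log2 fold change of -0.27 (adjusted p = 0.00831, SE 0.07), or -0.20 (adjusted p = 0.0558) when scaled by library size alone, and the change was -0.17 (adjusted p = 0.06, SE 0.0699) in OMVSSDC. There Gnb1 was called lower by relative log expression scaling (adjusted p = 0.028), by DESeq2 (adjusted p = 0.0142), without OMVSSDC replicate 1 (adjusted p = 0.0294) or 3 (adjusted p = 0.0394) and with replicate 3 alone, at -0.32 (adjusted p = 2.59e-05). Gnb2 was higher in OMVSSDC replicates 1 and 2 than in any other library, at 132, 126 and 64.3 CPM in OMVSSDC, 60, 63.6 and 81.5 CPM in ZJDC and 77.8, 74.1 and 83 CPM in PBSDC, and did not pass in either group (log2 fold changes of 0.46 in OMVSSDC and -0.19 in ZJDC); without OMVSSDC replicate 3 it was 0.72 (adjusted p = 0.000132) in OMVSSDC. Gng12 stood at 92.8, 101 and 126 CPM in OMVSSDC, 120, 119 and 113 CPM in ZJDC and 66.1, 60.7 and 61 CPM in PBSDC. Gng12 rose in both groups by log2 fold changes of 0.77 (adjusted p = 0.000119, SE 0.106) in OMVSSDC and 0.91 (adjusted p = 5.53e-05, SE 0.106) in ZJDC. Gng5 rose in ZJDC, by 0.42 (adjusted p = 0.00694, SE 0.106). In OMVSSDC the change was 0.34 (adjusted p = 0.0172, SE 0.107), with an adjusted p of 0.062 and 0.0622 without PBSDC replicate 3 or 2. Gng2, a gamma subunit common in blood cells, was lower in OMVSSDC replicates 1 and 2, at 56.3, 54.8 and 83.8 CPM in OMVSSDC, 74, 71.3 and 77.3 CPM in ZJDC and 88.1, 89.8 and 79.3 CPM in PBSDC. Its log2 fold change was -0.40 (adjusted p = 0.0322, SE 0.144) in OMVSSDC, with an adjusted p of 0.0864 to 0.111 without OMVSSDC replicate 1 or 2 or PBSDC replicate 1 or 2, and -0.04 with OMVSSDC replicate 3 alone; in ZJDC it was called lower without that replicate, at -0.21 (adjusted p = 0.00169).

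**Figure D4:**
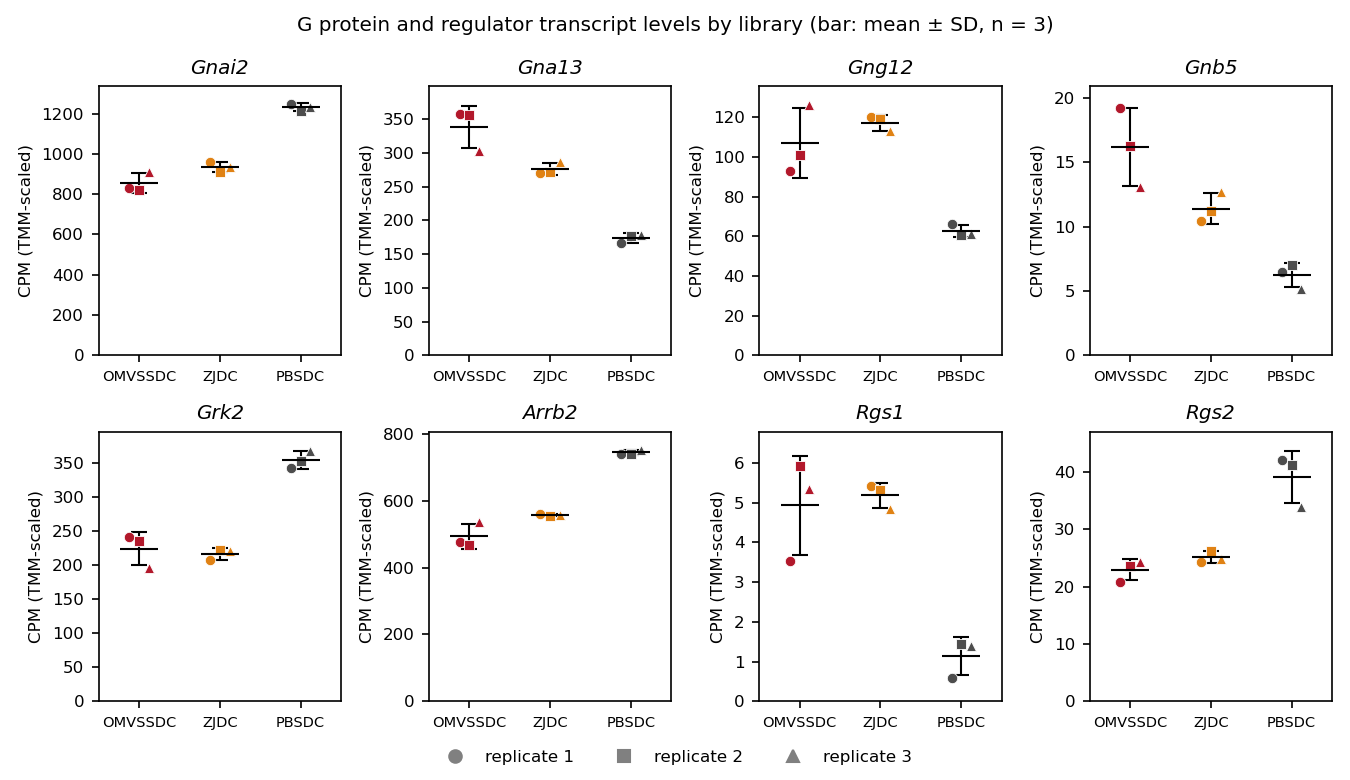
Level of 4 G protein subunits (upper row) and 4 regulators (lower row) in each library (CPM, TMM-scaled, linear axes from 0), with circles, squares and triangles for replicates 1, 2 and 3 and bars for mean ± SD (n = 3). Gnai2, Grk2, Arrb2 and Rgs2 were lower in every OMVSSDC and ZJDC library than in PBSDC, and Gna13, Gng12, Gnb5 and Rgs1 higher.

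RGS proteins moved in both directions. Of 9, with the membrane anchor Rgs9bp, 4 were higher and 3 lower in OMVSSDC than in PBSDC, and 4 higher and 4 lower in ZJDC. Rgs1, an activation-induced regulator of Gi signalling in lymphocytes and myeloid cells, stood at 3.53, 5.92 and 5.35 CPM in OMVSSDC, 5.41, 5.32 and 4.83 CPM in ZJDC and 0.59, 1.44 and 1.39 CPM in PBSDC. Rgs1 rose in both groups by log2 fold changes of 2.15 (adjusted p = 0.000153, SE 0.305) in OMVSSDC and 2.21 (adjusted p = 0.000166, SE 0.303) in ZJDC. Rgs2, which acts mainly on Gq, stood at 20.8, 23.6 and 24.3 CPM in OMVSSDC, 24.2, 26.2 and 24.8 CPM in ZJDC and 42.1, 41.2 and 33.9 CPM in PBSDC. Rgs2 fell, with log2 fold changes of -0.77 (adjusted p = 0.000106, SE 0.104) in OMVSSDC and -0.64 (adjusted p = 0.000463, SE 0.103) in ZJDC. Rgs14, a scaffold that also binds inactive Gi, stood at 5.84, 5.08 and 3.79 CPM in OMVSSDC, 6.43, 4.23 and 5.42 CPM in ZJDC and 12.4, 13.9 and 13 CPM in PBSDC. It fell as well, by log2 fold changes of -1.42 (adjusted p = 7.66e-05, SE 0.182) in OMVSSDC and -1.27 (adjusted p = 0.000194, SE 0.179) in ZJDC.

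Rgs18, a regulator of myeloid cells and platelets, fell in OMVSSDC, with a log2 fold change of -0.71 (adjusted p = 0.00368, SE 0.165). In ZJDC the change was -0.46 (adjusted p = 0.0336, SE 0.161), with an adjusted p of 0.0988 to 0.124 without ZJDC replicate 1 or 2 or PBSDC replicate 1 or 3. Rgs20 rose by log2 fold changes of 0.66 (adjusted p = 0.00689, SE 0.171) in OMVSSDC and 0.92 (adjusted p = 0.00111, SE 0.169) in ZJDC. Rgs9bp rose by 2.36 (adjusted p = 5.44e-05, SE 0.289) in OMVSSDC and 1.37 (adjusted p = 0.00379, SE 0.31) in ZJDC, and by 1.74 in OMVSSDC with replicate 3 alone. Rgs3 rose in ZJDC, by 0.37 (adjusted p = 0.00322, SE 0.0818). In OMVSSDC the change was 0.22 (adjusted p = 0.0405, SE 0.0823), and it did not pass without any 1 of the 9 libraries (adjusted p 0.0503 to 0.121).

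The arrestins and 3 of 5 tested receptor kinases, which switch off active receptors, were lower in both groups. Of 6 receptor kinases, arrestins and alpha subunit chaperones, 5 were lower in each group. Grk2, a kinase that phosphorylates active receptors, stood at 241, 235 and 196 CPM in OMVSSDC, 207, 222 and 220 CPM in ZJDC and 343, 352 and 368 CPM in PBSDC. Grk2 fell, with log2 fold changes of -0.66 (adjusted p = 5.98e-05, SE 0.0822) in OMVSSDC and -0.71 (adjusted p = 5.16e-05, SE 0.0822) in ZJDC. Arrb2, an arrestin that ends signalling and draws receptors into the cell, stood at 477, 468 and 537 CPM in OMVSSDC, 561, 554 and 558 CPM in ZJDC and 739, 741 and 753 CPM in PBSDC. No library of OMVSSDC or ZJDC reached a PBSDC library. Arrb2 had log2 fold changes of -0.59 (adjusted p = 2.22e-05, SE 0.0639) in OMVSSDC and -0.42 (adjusted p = 0.00033, SE 0.0638) in ZJDC. Arrb1, the other arrestin, fell, with log2 fold changes of -0.73 (adjusted p = 2.42e-05, SE 0.0792) in OMVSSDC and -0.66 (adjusted p = 6.75e-05, SE 0.079) in ZJDC.

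Grk3, a second kinase, fell in OMVSSDC, with a log2 fold change of -0.34 (adjusted p = 0.00464, SE 0.0823), or -0.21 (adjusted p = 0.0669) scaled by library size alone, and was -0.23 (adjusted p = 0.0378, SE 0.0818) in ZJDC, where the adjusted p was 0.0688 to 0.127 without PBSDC replicate 1 or 3 or any 1 ZJDC replicate. Of the 3 receptor kinases that are no members, Grk6 fell, with log2 fold changes of -0.58 (adjusted p = 0.00668) in OMVSSDC and -0.83 (adjusted p = 0.00105) in ZJDC. Grk5 did not pass, at 0.16 (adjusted p = 0.326) in OMVSSDC and 0.25 (adjusted p = 0.141) in ZJDC, nor did Grk4, at 0.57 (adjusted p = 0.251) in OMVSSDC and 0.57 (adjusted p = 0.257) in ZJDC. Ric8b, a chaperone of the Gs class, fell, with log2 fold changes of -0.66 (adjusted p = 0.00025, SE 0.101) in OMVSSDC and -0.46 (adjusted p = 0.003, SE 0.1) in ZJDC. Ric8a, the chaperone of the other alpha subunits, was at 83, 87.9 and 46.9 CPM in OMVSSDC, 52.2, 54.6 and 59.6 CPM in ZJDC and 39.5, 49.2 and 51.3 CPM in PBSDC. The excess lay in OMVSSDC replicates 1 and 2: the log2 fold change of 0.64 (adjusted p = 0.0186, SE 0.203) in OMVSSDC had an adjusted p of 0.0617 to 0.0787 without OMVSSDC replicate 1 or 2 or PBSDC replicate 1, and was 0.01 with OMVSSDC replicate 3 alone. In ZJDC Ric8a was called higher without that replicate, at 0.26 (adjusted p = 0.00708).

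More effectors were lower than higher. Of 17 lipid, calcium and small GTPase effectors, 10 were lower and 5 higher in OMVSSDC than in PBSDC, and 9 lower and 4 higher in ZJDC. Pik3cg, the catalytic subunit of PI3-kinase gamma that beta-gamma dimers activate, stood at 60, 52.7 and 63.6 CPM in OMVSSDC, 74.9, 72.3 and 72.2 CPM in ZJDC and 124, 123 and 125 CPM in PBSDC. Pik3cg fell, with log2 fold changes of -1.08 (adjusted p = 9.85e-07, SE 0.0741) in OMVSSDC and -0.76 (adjusted p = 1.5e-05, SE 0.0734) in ZJDC. Of its 2 adaptors, Pik3r5 rose, by 0.60 (adjusted p = 2.78e-05, SE 0.0666) in OMVSSDC and 0.53 (adjusted p = 8.91e-05, SE 0.0665) in ZJDC, and Pik3r6 fell in OMVSSDC, with a log2 fold change of -0.42 (adjusted p = 0.00245, SE 0.0905). In ZJDC Pik3r6 changed by -0.30 (adjusted p = 0.0174, SE 0.09), with an adjusted p of 0.0781 and 0.0676 without PBSDC replicate 1 or ZJDC replicate 1. The catalytic subunit and 1 adaptor thus moved in opposite directions.

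Prex1, a Rac exchange factor that responds to beta-gamma and PIP3, fell, with log2 fold changes of -0.55 (adjusted p = 2.68e-05, SE 0.0609) in OMVSSDC and -0.52 (adjusted p = 5.58e-05, SE 0.0609) in ZJDC. Rac2, the Rac GTPase of blood cells, fell, with log2 fold changes of -0.38 in OMVSSDC and -0.30 in ZJDC. Arhgef1 and Arhgef11, guanine nucleotide exchange factors that G12 and G13 activate, fell, with log2 fold changes of -0.53 in OMVSSDC and -0.63 in ZJDC, and by -0.66 in OMVSSDC and -0.38 in ZJDC, whereas Arhgef12, a further one of that kind, rose by 0.30 (adjusted p = 0.00484, SE 0.0741) in OMVSSDC and 0.46 (adjusted p = 0.000445, SE 0.0739) in ZJDC. Plcb3, a phospholipase C beta, rose by 0.68 (adjusted p = 4.9e-06, SE 0.0594) in OMVSSDC and 0.67 (adjusted p = 8.18e-06, SE 0.0593) in ZJDC. Plcd1 fell, with log2 fold changes of -0.55 (adjusted p = 0.00695, SE 0.143) in OMVSSDC and -0.74 (adjusted p = 0.00158, SE 0.144) in ZJDC. Syk and Itpr3 did not pass, with log2 fold changes of 0.02 in OMVSSDC and 0.01 in ZJDC, and of 0.01 in OMVSSDC and -0.02 in ZJDC.

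Among members annotated to the pathway from outside its core, Jak2, a cytokine receptor kinase, stood at 139, 141 and 163 CPM in OMVSSDC, 162, 154 and 150 CPM in ZJDC and 54.2, 53.2 and 49.7 CPM in PBSDC. Jak2 rose by log2 fold changes of 1.5 (adjusted p = 1.93e-07, SE 0.0789) in OMVSSDC and 1.57 (adjusted p = 2.84e-07, SE 0.0789) in ZJDC. Insr, the insulin receptor, rose by 1.07 (adjusted p = 3.5e-07, SE 0.0624) in OMVSSDC and 0.91 (adjusted p = 1.52e-06, SE 0.0623) in ZJDC, and Ppard, a fatty acid sensing nuclear receptor, by 0.60 in OMVSSDC and 0.80 in ZJDC. Bcar1, an adhesion signalling scaffold, rose in ZJDC by 0.94 (adjusted p = 0.0128, SE 0.268), and in OMVSSDC had a change of 0.85 (adjusted p = 0.0193, SE 0.272) with an adjusted p of 0.0571 to 0.111 without OMVSSDC replicate 3 or PBSDC replicate 2 or 3. Kcnk2, a potassium channel, rose by 1.4 (adjusted p = 0.00477, SE 0.342) in OMVSSDC and 1.41 (adjusted p = 0.00542, SE 0.34) in ZJDC. Sort1, a sorting receptor, was called lower in OMVSSDC, with a log2 fold change of -1.08 (adjusted p = 0.0313, SE 0.384), with an adjusted p of 0.0554 to 0.166 without OMVSSDC replicate 1 or 2 or PBSDC replicate 1. In ZJDC it was called lower without OMVSSDC replicate 3, at -0.72 (adjusted p = 0.0475).

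Of 4 ligand genes, 3 were higher and 0 lower in each group, though with OMVSSDC replicate 3 alone 1 was higher in OMVSSDC. App, the amyloid precursor, averaged 1142 ± 186 CPM in OMVSSDC, 1263 ± 45.1 CPM in ZJDC and 830 ± 22.2 CPM in PBSDC (SD, n = 3 each), and rose by 0.46 (adjusted p = 0.00244, SE 0.0997) in OMVSSDC and 0.60 (adjusted p = 0.000555, SE 0.0998) in ZJDC. Edn1, the endothelin precursor, was highest in ZJDC, at 2.02, 1.84 and 3.25 CPM in OMVSSDC, 5.47, 4.38 and 5.1 CPM in ZJDC and 2.89, 1.99 and 3.51 CPM in PBSDC. Its change in ZJDC was 0.84 (adjusted p = 0.0164, SE 0.251), with an adjusted p of 0.0666 and 0.058 without PBSDC replicate 2 or ZJDC replicate 1, and -0.24 (adjusted p = 0.458, SE 0.274) in OMVSSDC. Apln, the apelin precursor, had a change of 1.22 (adjusted p = 0.0414, SE 0.466) in OMVSSDC, with an adjusted p of 0.0568 to 0.151 without OMVSSDC replicate 1 or 2, PBSDC replicate 1 or 3 or ZJDC replicate 2. Ghrl, the third counted as higher in each group, had at most 7 counts in any PBSDC library, so its direction is only described. Its adjusted p in OMVSSDC was 0.0518 without OMVSSDC replicate 1 and 0.0513 without PBSDC replicate 2. In ZJDC it was 0.0549 to 0.129 without any 1 of the ZJDC or PBSDC replicates. Of the called ligand genes, App alone passed whichever single library was left out.

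Of the further pathway genes that are no members, 47 were tested, and 20 were higher and 8 lower in OMVSSDC than in PBSDC (59.6%, beside 63.6% of all tested genes). In ZJDC 23 were higher and 7 lower (63.8%, beside 54.7% of all tested genes). These shares are near the background, so the counts below only describe the lists. Cyclic AMP phosphodiesterases, which break down the second messenger, were mostly higher where they passed: of 9, 4 were higher and 1 lower in OMVSSDC, and 7 higher and 2 lower in ZJDC. Pde4c stood at 5.77, 6.31 and 6.36 CPM in OMVSSDC, 3.27, 3.05 and 3.11 CPM in ZJDC and 0.708, 0.617 and 1.02 CPM in PBSDC. Its log2 fold changes were 2.97 in OMVSSDC (SE 0.199, adjusted p = 8.24e-07) and 2.01 in ZJDC (SE 0.212, adjusted p = 2.67e-05). Of 12 cyclic AMP-responsive transcription genes 7 were higher and 2 lower in OMVSSDC, and 7 higher and 1 lower in ZJDC, with Crem at log2 fold changes of 1.17 in OMVSSDC and 0.96 in ZJDC and Sik1 at -0.86 in OMVSSDC and -0.64 in ZJDC. Of 3 tested adenylyl cyclases, which make cyclic AMP, Adcy7 was lower (-0.29 in OMVSSDC and -0.39 in ZJDC) and Adcy9 higher (0.95 in OMVSSDC and 0.78 in ZJDC). Of 6 protein kinase A subunits, 1 was higher and 2 were lower in OMVSSDC, and 1 was higher and 1 lower in ZJDC; Prkar2a, a regulatory subunit, was lower, at log2 fold changes of -1.12 in OMVSSDC and -0.88 in ZJDC.

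OMVSSDC and ZJDC differed from each other in few members. Of 169 tested, 1 was higher and 2 were lower in OMVSSDC than in ZJDC, 1.8% beside 1.95% of all tested genes (0.856% higher, 1.1% lower). Gng11, a gamma subunit, stood at 6.56, 6.03 and 3.99 CPM in OMVSSDC, 2.14, 2.51 and 3.11 CPM in ZJDC and 1.83, 1.99 and 2.34 CPM in PBSDC. It was higher in every OMVSSDC library than in any ZJDC library, with a log2 fold change of 1.09 (adjusted p = 0.0466, SE 0.227). Fpr1 and C5ar1, described above, were lower in every OMVSSDC library, with log2 fold changes of -0.47 (adjusted p = 0.0281, SE 0.0742) and -0.51 (adjusted p = 0.0281, SE 0.0826).

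Those 3 calls depend on single libraries. The adjusted p of Gng11 was 0.0866 to 0.208 without any 1 library other than OMVSSDC replicate 3, that of C5ar1 was 0.0707 to 0.155 without the same, and that of Fpr1 was 0.0603 to 0.155 without any 1 other than OMVSSDC replicate 3 and PBSDC replicate 1. Without OMVSSDC replicate 3, 37 members were higher and 35 lower in OMVSSDC than in ZJDC, 42.4% of the members beside 55.6% of all genes; with that replicate alone, 1 was higher and 2 lower, and the log2 fold change of Gng11 was 0.61 (adjusted p = 0.355). Without replicate 3, OMVSSDC consists of the 2 libraries that stand apart, so their separate position and the group cannot be told apart. Against PBSDC, Gng11 rose in OMVSSDC, by 1.43 (adjusted p = 0.000425, SE 0.237), and did not pass in ZJDC, with 0.35 (adjusted p = 0.272, SE 0.254).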

How the data were processed

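Total RNA of 9 DC2.4 libraries, 3 each of OMVSSDC, ZJDC and PBSDC, was sequenced, and groups follow the sample titles. Reads were handled with fastp 0.22.0, HISAT2 2.1.0 and HTSeq 0.9.1, per the submitters' processing notes (genome build and strand setting not given in the sources used here). Raw read counts per gene and FPKM values were deposited by the authors; FPKM only ranked genes by level per length.

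From the counts, CPM values were computed with TMM scaling, and all 9 libraries were fitted together in edgeR 4.0.16 (R 4.3.3; quasi-likelihood F-test, robust, group as factor, 6 residual degrees of freedom), after its filter on low counts (minimum count 10). Adjusted p is Benjamini-Hochberg over the 11568 genes tested, and called means below 0.05. Log2 fold changes have a standard error from the same model. Totals of 12784931 to 18388959 counts put a floor of 3 counts at 0.163 to 0.235 CPM; this covers counting error only.

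Members, roles and pathway lists were chosen with earlier results of these data known. The text names a set panel of receptors, G proteins and regulators whatever their result and, in each comparison and class, the 6 members per direction with the largest called change at a mean of at least 1 CPM (76 members); any other member named was chosen after its values were seen. Some members that this rule names are not reported here. Promoter windows are RefSeq's (GRCm38.p6), and 124 members matched by symbol. Alternatives were other scalings and filters, DESeq2 1.42.0, limma-voom (limma 3.58.1), a replicate block, a fit of only the 2 groups compared and libraries left out. DESeq2 and limma-voom used the same counts.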

Additional observations from a re-analysis of the deposited data

How the results depend on the processing

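Against PBSDC, the counts of members called in either group moved by at most 1.5 times under every alternative run. Leaving out 1 library at a time gave 59 to 84 members higher and 40 to 51 lower in OMVSSDC, and 49 to 72 higher and 34 to 53 lower in ZJDC. With OMVSSDC replicate 3 alone, Dgkq and Gipc1, called higher in OMVSSDC than in PBSDC with all libraries, had log2 fold changes of -0.09 and -0.05; no member that the text describes by the naming rule reversed. Scaling by library size alone shifted the median of all genes by 0.128 (log2) in OMVSSDC against PBSDC.

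The comparison of OMVSSDC with ZJDC depended on the settings. Over all genes DESeq2 called 806 higher and 838 lower, and without OMVSSDC replicates 1 and 2 edgeR called 214 lower. DESeq2 called 13 members higher and 11 lower (receptors 8 and 5, G proteins and regulators 5 and 6). With no filter 3 members were higher (2 receptors) and 1 regulator or G protein lower, with the stricter filter 2 (1 receptor), and with limma-voom 4 (3 receptors), with 1 regulator or G protein lower. With OMVSSDC replicate 3 alone, 1 receptor and 0 G proteins or regulators were higher. A fit of only the 2 groups called 0 genes and 0 members in either direction, with 23 members higher and 14 lower at an unadjusted p under 0.05. Leaving out 1 library gave 0 to 3243 genes higher and 0 to 3296 lower, 0 to 37 members higher and 0 to 35 lower, 0 to 22 receptors higher and 0 to 15 lower, and 0 to 15 G proteins and regulators higher and 0 to 20 lower. In each case the highest count came without OMVSSDC replicate 3. The cause was not tested.

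Between libraries with the same replicate number, deviations from the group means correlated at r of -0.388 to 0.0887. With so few libraries per group and the OMVSSDC libraries split as described above, these correlations cannot decide whether the numbers pair the samples. With the replicate block, 67 members were higher and 46 lower in OMVSSDC than in PBSDC, and 55 higher and 38 lower in ZJDC. Between OMVSSDC and ZJDC the replicate block left 0 genes, members, receptors or G proteins and regulators called in either direction by edgeR, with 23 members higher and 14 lower at an unadjusted p under 0.05. Members with few counts, such as P2ry12 and Tas2r135, are limited by depth.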
